A study of Rattus norvegicus with 9 samples.

Results

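The genes described here make, break down or bind hyaluronan: the synthases Has1, Has2 and Has3, the breakdown genes Hyal1, Hyal2 and Cemip, the receptor Cd44, and the binding proteins Vcan and Tnfaip6. They were chosen by symbol, with earlier results of these data known. Of the 9, 8 were found among the 19085 genes of the deposited table. All 8 had enough counts to be tested, as 13256 genes of the table did, and Hyal1 is not analysed here. The cells were osteoblasts of the first passage, grown out of the calvaria of male Sprague–Dawley rats 24 hours old and kept for 7 days in osteogenic induction medium, which contains dexamethasone, ascorbic acid and β-glycerophosphate in every group. The Control group received this medium alone, the Thrombin group had thrombin added at 20 U/mL, and the PD03 group had the same dose of thrombin together with PD0325901 (PD03), which inhibits the kinase MEK. Messenger RNA was sequenced, with 3 libraries per group. The concentration of PD03 was 0.1 μM according to the methods and the series design, whereas a protocol in the labels gives 0.1 mM, and the tissue field of the labels says knee. No group received PD03 without thrombin, so every difference between PD03 and Control combines thrombin and the inhibitor.

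Hyaluronan is a long, unsulfated sugar chain of alternating glucuronic acid and N-acetylglucosamine. It is made at the plasma membrane by the Has enzymes, which push the growing chain out of the cell, and it is cut into pieces by hyaluronidases and by Cemip. In the matrix it carries proteoglycans such as versican, and on the cell it is held by Cd44. In skeletal tissue it is part of the pericellular coat of osteoblasts and chondrocytes, and its size and amount change when tissue is injured or inflamed.

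Total counts per library lay between 15447832 and 19841468. Col1a1, the main collagen of bone, took 6.78% to 6.96% of the counts in PD03 and 4.18% to 5.05% in the other groups, and levels between libraries were compared as CPM, the count of a gene relative to its library's TMM-scaled total. The osteoblast label was checked against 10 marker genes, whose summed CPM was 60700 to 66500 in Control, 55800 to 59000 in Thrombin and 95100 to 98200 in PD03. Nearly all of this was collagen. Runx2, the transcription factor of the lineage, was present at 42.8, 51.1 and 32.1 CPM on average in Control, Thrombin and PD03. Spp1 was at 63.6, 185 and 53.1 CPM, Sp7 at 4.25, 6.2 and 4.94, and Phex at 0.629, 0.547 and 0.711. But Alpl was at 1.67, 0.345 and 3.10 CPM, and the late markers Bglap, Ibsp and Dmp1 stayed below 0.2 CPM in every group mean. In the same order, the summed CPM was 11.4 to 13.7, 10.1 to 11.9 and 11.9 to 13.1 for skeletal muscle markers. For a list of 5 genes of synovial cells, not all particular to the lining, it was 1540 to 1630, 1390 to 1430 and 1590 to 1640. Thy1 (1130, 983 and 1020 CPM) and Cd55 (453, 414 and 583) made up nearly all of this, and whether they came from synovial cells was not tested. Prg4 was at 3.52, 1.54 and 6.15 CPM and Clic5 at 8.63, 13.6 and 1.78. For adipocyte markers the sum was 0.815 to 1.7, 0.297 to 0.757 and 3.79 to 6.67. Lep was at 0.677, 0.0754 and 4.54 CPM, and no other adipocyte marker passed 0.248 CPM in a group mean.

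The letters that stand just before the start of a gene are where many transcription factors bind. Windows of 250 bases before the start were looked up in RefSeq (build GRCr8), which gave an entry for 7 of the 9 genes. Has2 and Has3 had none. The windows were searched on both strands for 6 motifs: AP-1 (TGANTCA), CRE (TGACGTCA), ETS (CCGGAA), the TATA box (TATAAA), and the kappaB and CArG motifs. Has1, Cemip and Tnfaip6, 3 of the 7 genes with an entry, had a match. All 3 were called different between Thrombin and Control, beside 8.06% of all tested genes, as was Has2, which had no entry. The share of all windows that match any of the 6 motifs was not counted. A tie between match and call was not tested. The stretches of 30 bases that held a match are shown, whatever the call of the gene. Each is written 5′ to 3′ on the strand of its gene, with the match in capitals.
Has1: tcagacttgtcTGACGTCAgccctcctcca
Cemip: tcagccCCGGAAggcgacTATAAAaagcgt
Tnfaip6: tgccaatgcaaaTGAGTCAgagggcttgct
The Has1 stretch lies at chr1:67378509-67378538 on the minus strand and holds a CRE match 83 to 76 bases before the start, a motif found in 1.59% of the 33469 windows of all genes. In Cemip, at chr1:147471503-147471532 on the minus strand, an ETS match (12.6% of windows) and a TATA match (12.9%) stand 43 to 38 and 31 to 26 bases before the start. The Tnfaip6 stretch, at chr3:56911194-56911223 on the plus strand, has an AP-1 match 192 to 186 bases before the start, and 6.34% of windows have at least 1 such match. No match was found in the other 4 entries, and the kappaB and CArG motifs, which occur in 3.54% and 1.5% of windows, matched in none of the 7. These are descriptions of letters, not of binding.

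In the comparison of Thrombin with Control, which asks what thrombin changed in these cultures, Has1, Has2 and Tnfaip6 rose and Cemip fell. A gene was called when its adjusted p-value (edgeR's quasi-likelihood test, Benjamini-Hochberg over all 13256 genes) was under 0.05 and its log2 fold change was above 0.58 in size. By this rule 4 of 8 hyaluronan genes were called, beside 8.06% of all tested genes: 3 higher, beside 2.62%, and 1 lower, beside 5.44%. Adding the MEK inhibitor, in PD03 against Thrombin, lowered Has1 and Has2 and raised Cemip, so that 3 of 8 were called, beside 15.9% of all genes: 1 higher, beside 9.61%, and 2 lower, beside 6.31%. In PD03 against Control the same 3 genes were called, beside 8.97% of all genes: Cemip was higher, beside 4.9%, and Has1 and Has2 were lower, beside 4.07%. Without the fold threshold, 6, 7 and 5 of the 8 had an adjusted p under 0.05 in the 3 comparisons, beside 28.7%, 49.8% and 39.9% of all genes. The libraries of both groups did not overlap for 6, 7 and 6 of the 8, beside 40.3%, 55.5% and 47.8% of all genes, so non-overlap alone was common in this table. The median log2 fold change of the 8 genes was 0.38, -0.46 and 0.04 in the 3 comparisons, and that of all tested genes lay between -0.006 and 0.011. The 3 comparisons share libraries, so their values are given side by side and are not independent. Because the genes were chosen with earlier results of these data known, these counts are a description. In whole cultures, fewer cells that express a gene and less RNA of that gene per cell cannot be told apart.

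**Figure D1:**
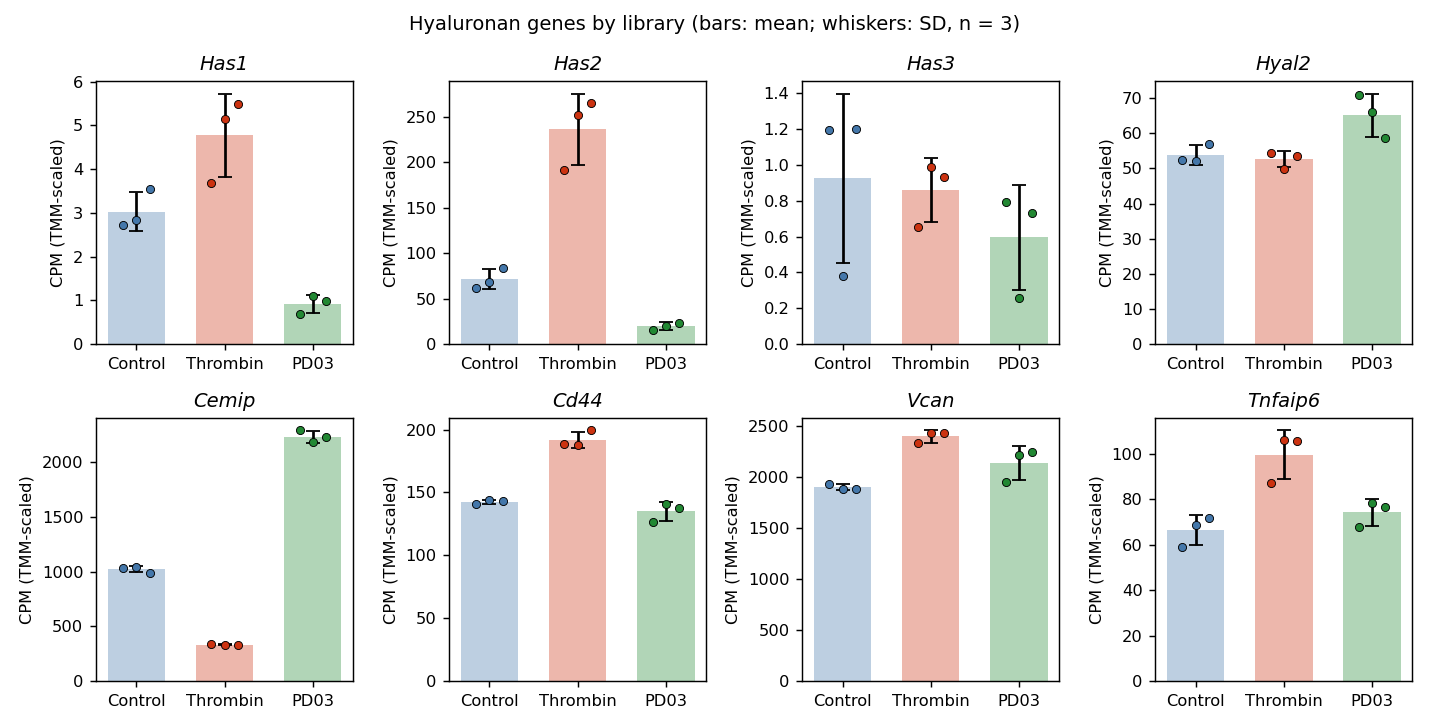
CPM (TMM-scaled, linear axes that start at 0) of the 8 hyaluronan genes in Control, Thrombin and PD03; points are libraries, bars are group means and whiskers are SD (n = 3). Has2 is highest in Thrombin and lowest in PD03, Cemip shows the opposite order, and the points of Has3 overlap between all groups.

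Has2, the synthase that mesenchymal cells mainly use to make long hyaluronan chains, stood at 62.2, 68.5 and 83.3 CPM in the Control libraries. In Thrombin it was at 192, 252 and 265 CPM. In PD03 it was at 15.5, 20.45 and 23.5 CPM. Every Thrombin library was above every Control library, and every PD03 library was below both. From group means of 71.3 ± 10.9, 236 ± 39.1 and 19.8 ± 4.06 CPM (SD, n = 3), Has2 rose 3.32-fold with thrombin, a log2 fold change of 1.73 (95% interval 1.56 to 1.90, adjusted p = 8.23e-21, edgeR). A change of this size or larger was seen in 1.14% of tested genes. Between Thrombin and PD03 it fell 12.03-fold (log2 fold change -3.59, interval -3.79 to -3.39, adjusted p = 8.24e-30), and 0.317% of tested genes differed as much. The PD03 level was also 3.62-fold below Control (log2 fold change -1.86, interval -2.07 to -1.64, adjusted p = 2.51e-18). The sources used here do not state the strand setting of the counting, so reads from a transcript antisense to Has2 or another of these genes could not be told apart from its own.

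Has1, a synthase that needs more of the sugar precursors and is scarce in most resting cells, showed the same order at a much lower level. Its raw counts were 50, 45 and 56 in Control, 62, 94 and 94 in Thrombin, and 13, 17 and 16 in PD03, with no overlap between groups. The means were 3.03 ± 0.441, 4.77 ± 0.954 and 0.923 ± 0.212 CPM (SD, n = 3). The rise with thrombin was small and wide in its interval (log2 fold change 0.66, interval 0.24 to 1.08, adjusted p = 0.0141, edgeR). This call was lost when any of 4 libraries was left out: Control 1 (0.58, adjusted p = 0.0717), Control 2 (0.62, adjusted p = 0.0564), Thrombin 2 (0.60, adjusted p = 0.0667) or Thrombin 3 (0.55, adjusted p = 0.0955). The fall between Thrombin and PD03 was 5.22-fold (log2 fold change -2.38, interval -2.902 to -1.86, adjusted p = 1.73e-10). Against Control, PD03 was 3.30-fold lower (log2 fold change -1.72, interval -2.28 to -1.17, adjusted p = 1.76e-06). With 13 to 94 counts per library, counting error takes a larger part of the spread of Has1 than of Has2.

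Has3, which makes shorter chains, was counted by few reads. Its counts were 22, 6 and 19 in Control, 11, 18 and 16 in Thrombin, and 15, 4 and 12 in PD03, and the groups overlapped throughout. The log2 fold change was -0.12 for Thrombin against Control (interval -0.96 to 0.73), -0.50 for PD03 against Thrombin (interval -1.41 to 0.42) and -0.61 for PD03 against Control (interval -1.52 to 0.29). Adjusted p-values were 0.874, 0.379 and 0.292 (edgeR), and the intervals are wide enough to hold changes past the fold threshold, so a difference was not detectable at this depth.

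Levels of different genes were compared on the deposited FPKM values, which divide counts by gene length and library total. On that scale Has2 made up 91.3 ± 1.07% of the summed synthase level in Control, 96.1 ± 0.151% in Thrombin and 88.4 ± 1.84% in PD03 (SD, n = 3). Has1 contributed 6.80 ± 0.102%, 3.38 ± 0.126% and 7.22 ± 1.07%, and Has3 contributed the rest. The sum of the 3 synthases was 21.9 ± 3.18 FPKM in Control, 68.3 ± 11.3 in Thrombin and 5.80 ± 1.09 in PD03. Has2 was thus most of the synthase message in each of the 9 libraries, with a lowest share of 86.3%.

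Cemip, a secreted or membrane-bound protein that is needed for cells to take hyaluronan apart at their surface, had the opposite order to Has2. It stood at 1035, 1039 and 989 CPM in Control. In Thrombin it was at 336, 330 and 331 CPM. In PD03 it was at 2293, 2182 and 2228 CPM. The libraries of each group lay close together and far from those of the other groups. Group means were 1021 ± 27.9, 332 ± 3.50 and 2234 ± 56.0 CPM (SD, n = 3). Cemip fell 3.07-fold with thrombin (log2 fold change -1.62, interval -1.69 to -1.55, adjusted p = 1.19e-33, edgeR). It rose 6.73-fold from Thrombin to PD03 (log2 fold change 2.75, interval 2.68 to 2.82, adjusted p = 4.86e-42), and 0.785% of tested genes differed as much. The PD03 level was 2.19-fold above Control (log2 fold change 1.13, interval 1.07 to 1.19, adjusted p = 6.27e-29). Hence neither Has2 nor Cemip in PD03 was at its Control level: Has2 lay below it and Cemip above it.

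**Figure D2:**
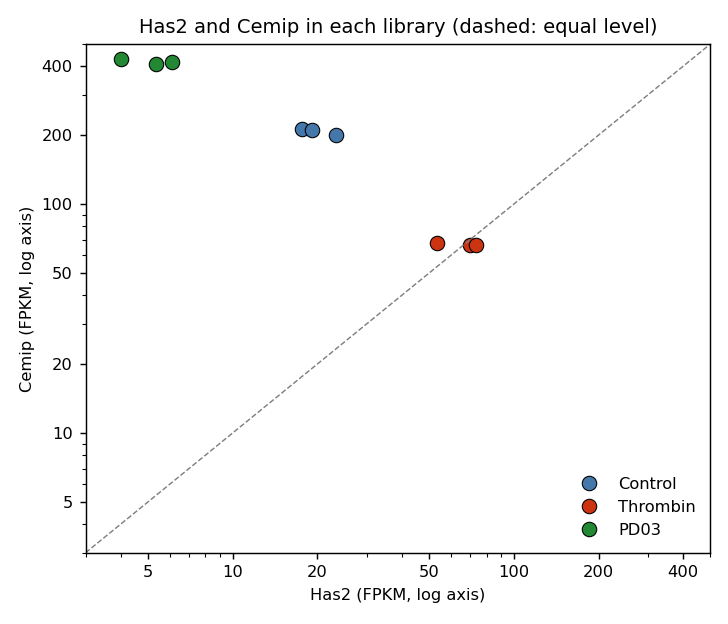
Deposited FPKM of Has2 (horizontal, log axis) against Cemip (vertical, log axis) in each of the 9 libraries, coloured by group; the dashed line marks equal levels. The Thrombin libraries sit on or near the line, with ratios of 0.9 to 1.27, and the PD03 libraries sit farthest above it, with ratios of 68.5 to 107.

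The ratio of Cemip to Has2 on the FPKM scale was 12, 11 and 8.57 in the Control libraries. With thrombin it was 1.27, 0.946 and 0.9. With thrombin and PD03 it was 107, 77 and 68.5. The group means were 10.5 ± 1.77, 1.04 ± 0.199 and 84.2 ± 20.3 (SD, n = 3), and no library of any group overlapped with another group. Cemip ranked 241 among the tested genes by FPKM in Control, 899 in Thrombin and 83 in PD03, whereas Has2 ranked 3208, 918 and 7599. These ratios describe messages, and neither hyaluronan nor its chain length was measured in the files.

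Hyal2, a hyaluronidase anchored at the cell surface and active on long chains, moved little. It was at 52.35, 52.1 and 56.9 CPM in Control, 54.3, 49.9 and 53.65 in Thrombin, and 70.8, 66.1 and 58.6 in PD03. Control and Thrombin overlapped (log2 fold change -0.03, interval -0.16 to 0.10, adjusted p = 0.762, edgeR). On TMM-scaled CPM all PD03 libraries were above all others. Against Thrombin the log2 fold change was 0.31 (interval 0.19 to 0.44, adjusted p = 4.6e-05, edgeR). Against Control it was 0.28 (interval 0.15 to 0.40, adjusted p = 0.000297), and both were under the fold threshold. On deposited FPKM, PD03 3 (29.19) lay inside the range of Control (28.07 to 30.65).

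Cd44, the main cell surface receptor for hyaluronan, was at 140.9, 143.9 and 142.9 CPM in Control, 188.7, 187.7 and 199.5 in Thrombin, and 126.7, 140.7 and 137.5 in PD03. The Thrombin libraries were all above the others, and those of PD03 lay below those of Control, the nearest of them by a narrow margin. The log2 fold change was 0.43 for Thrombin against Control (interval 0.34 to 0.52, adjusted p = 6.79e-11, edgeR) and -0.51 for PD03 against Thrombin (interval -0.60 to -0.42, adjusted p = 2.52e-13), neither past the fold threshold. With libraries scaled by their totals alone, the second of these was -0.61 and was called. PD03 against Control gave -0.08 (interval -0.17 to 0.009, adjusted p = 0.15). On deposited FPKM the PD03 libraries (28.42, 31.64 and 30.75) lay below those of Control (34.62, 34.79 and 34.54) by a wider margin. White blood cells also carry Cd44. Of the 10 macrophage markers looked up, 9 were in the table, and their summed CPM was 20.7 to 23.7 in Control, 29.1 to 32.8 in Thrombin and 17.5 to 19.2 in PD03. Cd14 made up most of this (20.4, 29.3 and 15.7 CPM), and Csf1r was at 0.44, 0.746 and 1.23 CPM. Ptprc, which marks all white blood cells, was at 0.0392, 0.0758 and 0.147 CPM. Cd68 was at 0.623, 0.477 and 0.439 CPM, and no other macrophage marker passed 0.402 CPM in a group mean. The part of white blood cells in the Cd44 values was not tested.

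Vcan encodes versican, a large proteoglycan whose head binds hyaluronan. It was at 1936, 1887 and 1886 CPM in Control, 2331, 2433 and 2437 in Thrombin, and 1949, 2215 and 2250 in PD03. Thrombin was above the other groups without overlap (log2 fold change against Control 0.33, interval 0.26 to 0.41, adjusted p = 3.84e-10, edgeR). PD03 against Thrombin was -0.17 (interval -0.24 to -0.09, adjusted p = 0.000133). PD03 against Control was 0.17 (interval 0.10 to 0.24, adjusted p = 0.000182), but 0.05 with adjusted p = 0.242 under library totals. None of the 3 passed the fold threshold.

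Tnfaip6 encodes TSG-6, a secreted protein that moves heavy chains of inter-alpha-inhibitor onto hyaluronan and is made in inflammation. It was at 59.0, 68.8 and 71.8 CPM in Control, 87.4, 106.2 and 105.8 in Thrombin, and 67.7, 78.6 and 76.7 in PD03. Thrombin stood apart, and Control and PD03 overlapped. Tnfaip6 rose 1.50-fold with thrombin (log2 fold change 0.59, interval 0.46 to 0.72, adjusted p = 1.12e-09, edgeR), just past the fold threshold. Without Control 1 the value was 0.51, and without Thrombin 2 or Thrombin 3 it was 0.55, under the fold threshold in each case. PD03 against Thrombin was -0.43 (interval -0.56 to -0.30, adjusted p = 4.53e-07), under the fold threshold, and PD03 against Control was 0.16 (interval 0.02 to 0.30, adjusted p = 0.0547).

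**Figure D3:**
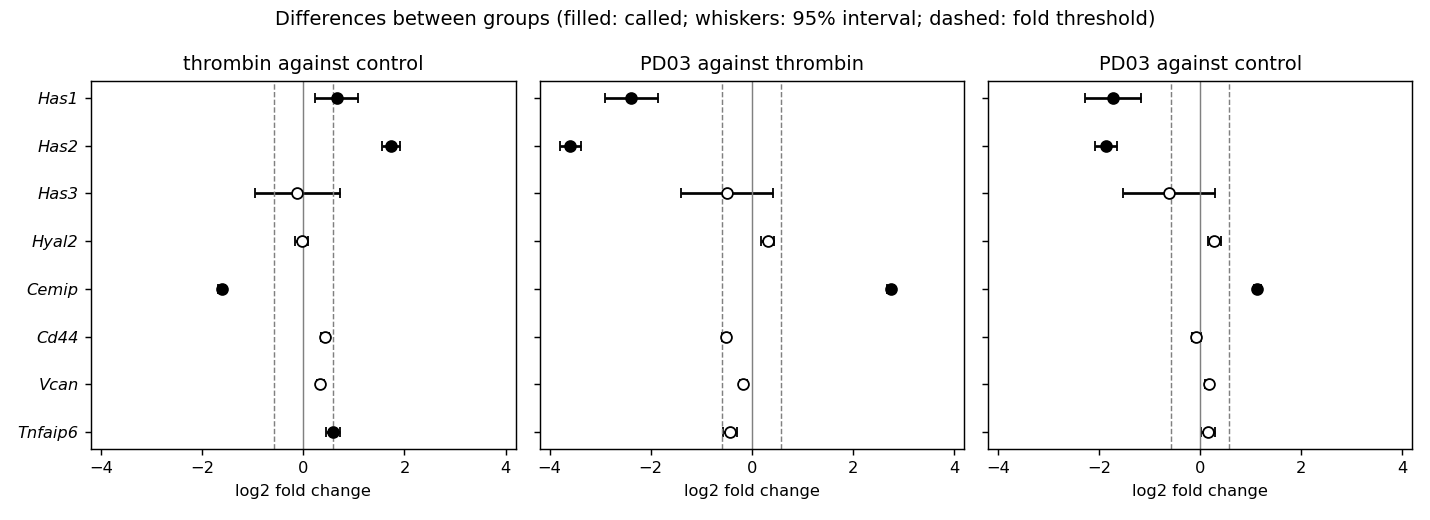
Log2 fold changes of the 8 hyaluronan genes in the 3 comparisons (edgeR); whiskers are 95% intervals, filled points are called and dashed lines mark the fold threshold of 0.58. Has2 and Cemip lie past the threshold on opposite sides in every panel, and Cd44, Vcan and Hyal2 stay inside it.

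Ordered by FPKM, Control ran from Cemip (207 ± 6.81) through Vcan (159 ± 3.89), Tnfaip6 (47.8 ± 4.40), Cd44 (34.6 ± 0.127), Hyal2 (29.1 ± 1.35), Has2 (20.0 ± 2.91) and Has1 (1.49 ± 0.208) to Has3 (0.410 ± 0.211), and no neighbours overlapped (SD, n = 3). In Thrombin Vcan came first at 198 ± 4.64 FPKM. Tnfaip6 (70.9 ± 7.51), Cemip (66.7 ± 0.808) and Has2 (65.6 ± 10.7) followed, and their libraries overlapped, so their order is not set by these data. Cd44 (46.1 ± 1.48), Hyal2 (28.1 ± 1.25), Has1 (2.32 ± 0.460) and Has3 (0.375 ± 0.0776) came after them. In PD03 Cemip came first again at 419 ± 10.2 FPKM, before Vcan (165 ± 12.6) and Tnfaip6 (49.3 ± 3.88). Hyal2 (32.6 ± 3.13) and Cd44 (30.3 ± 1.66) overlapped, Has2 followed at 5.14 ± 1.04, and Has1 (0.419 ± 0.0964) and Has3 (0.243 ± 0.119) overlapped at the end. Has2 therefore stood level with Tnfaip6 and Cemip in Thrombin and below Cd44 and Hyal2 in Control and PD03.

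The genes whose profile over the 9 libraries was most like a given hyaluronan gene were found by the root mean square difference of centred log2 CPM among 11922 genes. For Has2 these were Lif (0.20), a cytokine of the interleukin-6 family, Cxcl6 (0.293), a chemokine, and Ptgs2 (0.305), the inducible enzyme of prostaglandin synthesis. On the log2 scale Lif differed by 1.54 with thrombin, by -3.74 from Thrombin to PD03 and by -2.20 from Control to PD03. For Cemip they were Kcnd3 (0.137), a potassium channel, Igfbp2 (0.137), which binds insulin-like growth factors, and Fras1 (0.141), a basement membrane protein. Igfbp2 differed by -1.60, 2.47 and 0.87 in the same comparisons. For Cd44 they were Elk3 (0.051), Atp11a (0.055) and Orc6 (0.058), and for Vcan Fnbp1l (0.037), Nhlrc2 (0.042) and Iqgap1 (0.044). Because these genes were picked for likeness over the same 9 libraries, their values are a description.

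The wider pathway was described by a list of 51 genes, 46 of them in the table and 38 tested. The list was written with earlier results of these data known, so its counts are a description. Thrombin against Control called 3 higher and 4 lower (18.4% of the tested list), PD03 against Thrombin 4 and 4 (21.1%), and PD03 against Control 5 and 4 (23.7%), beside 8.06%, 15.9% and 8.97% of all tested genes. The median log2 fold changes of the list were 0.06, 0.07 and -0.0018.

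**Figure D4:**
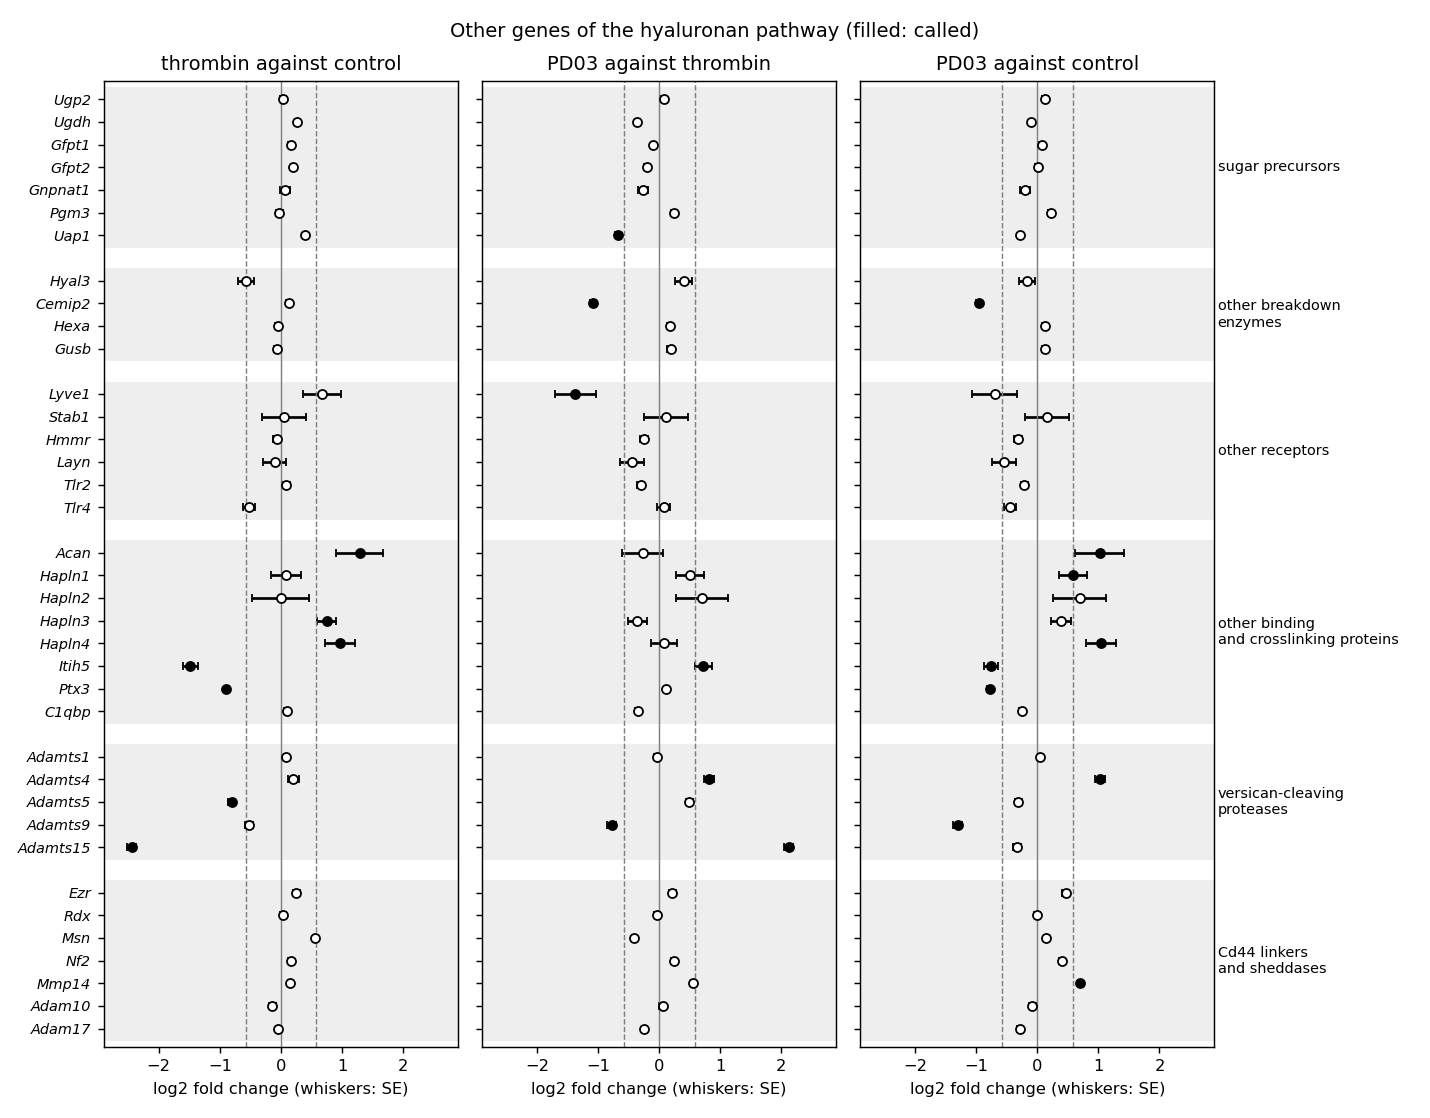
Log2 fold changes of 37 of the 38 tested genes of the wider hyaluronan list in the 3 comparisons, grouped by role; whiskers are SE, filled points are called and dashed lines mark the fold threshold. Adamts15 lies farthest out in the first 2 panels, at -2.44 and 2.12, and of the sugar precursor genes only Uap1 in PD03 against Thrombin, at -0.67, lies past the threshold.

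The 7 sugar precursor genes make the activated sugars that the synthases use. With thrombin 0 were called, beside 8.06% of all tested genes, and 1 between Thrombin and PD03, beside 15.9%. Uap1, which makes UDP-N-acetylglucosamine, was at 146 ± 7.41 CPM in Control, 192 ± 7.94 in Thrombin and 120.5 ± 3.60 in PD03 (SD, n = 3). It fell from Thrombin to PD03 (log2 fold change -0.67, adjusted p = 1.14e-16, edgeR), and its difference of 0.40 with thrombin was under the fold threshold. Ugdh, which makes UDP-glucuronic acid, was at 352, 421 and 329 CPM, with log2 fold changes of 0.26 and -0.36 that did not pass the fold threshold.

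Of the other breakdown enzymes, 5 of 8 were tested, and 0 were called with thrombin, beside 8.06% of all tested genes. Cemip2, a membrane protein related to Cemip, was at 148.8, 134 and 133 CPM in Control and 148.9, 149.2 and 156 in Thrombin. In PD03 it was at 68.5, 73.3 and 73.35 CPM, below every other library. It fell from Thrombin to PD03 by 1.08 on the log2 scale (interval -1.18 to -0.98, adjusted p = 3.92e-22, edgeR), and PD03 was below Control by -0.95 (adjusted p = 6.92e-20). Cemip and Cemip2 were thus called in opposite directions in PD03 against Thrombin.

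Among the other receptors, 6 of 7 were tested, and 1 was called, in PD03 against Thrombin, beside 15.9% of all tested genes. Lyve1, a receptor of lymphatic vessels and some macrophages, was near 1 CPM, at 1.22 ± 0.191 in Control, 1.95 ± 0.628 in Thrombin and 0.749 ± 0.121 in PD03 (SD, n = 3), and it fell from Thrombin to PD03 (log2 fold change -1.37, interval -2.06 to -0.68, adjusted p = 0.000776, edgeR). The endothelial markers, 6 of 8 of them in the table, summed to 7.88 to 9.09 CPM in Control, 7.4 to 9.81 in Thrombin and 12.1 to 14.2 in PD03, mostly Tek, and their part in the Lyve1 values was not tested. Tlr2, which can sense hyaluronan pieces, was at 55.8, 59.3 and 48.1 CPM, with no call.

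Most calls of the wider list with thrombin were among the other binding and crosslinking proteins. Of 8 tested, 3 were higher, beside 2.62% of all tested genes, and 2 were lower, beside 5.44%. Itih5, a heavy chain of the inter-alpha-inhibitor family, was at 15.1, 15.6 and 16.6 CPM in Control, 6.48, 5.04 and 5.42 in Thrombin, and 10.96, 7.77 and 9.05 in PD03, with no overlap. It fell with thrombin (log2 fold change -1.48, adjusted p = 1.38e-12, edgeR) and was higher in PD03 than in Thrombin (0.73, adjusted p = 2.3e-05, and 0.58, just under the fold threshold, without PD03 1). Ptx3, chosen here after its values were seen, encodes a pentraxin that binds TSG-6 in the hyaluronan matrix. It was at 721 ± 28.5 CPM in Control, 388.5 ± 8.50 in Thrombin and 420 ± 8.00 in PD03, fell with thrombin (-0.89, adjusted p = 7.61e-24), and differed by 0.11 between Thrombin and PD03.

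The 3 binding genes that rose with thrombin were Hapln3, Hapln4 and Acan, all at low level. Hapln4, a link protein that ties proteoglycans to hyaluronan, was at 1.58, 3.09 and 3.27 CPM in Control, Thrombin and PD03 (log2 fold change with thrombin 0.96, adjusted p = 0.00173, edgeR). Hapln3, chosen after its values were seen, was at 4.43, 7.46 and 5.80 CPM (0.75, adjusted p = 0.000264). Acan, the cartilage proteoglycan aggrecan, was at 0.590, 1.43 and 1.19 CPM (1.29, adjusted p = 0.00893), and it was not called without Control 1 (1.04, adjusted p = 0.0727) or Thrombin 2 (1.08, adjusted p = 0.0738). The chondrocyte markers, 7 of 8 of them in the table and Acan among them, summed to 98.6 to 109 CPM in Control, 72 to 79 in Thrombin and 93.5 to 101 in PD03, mostly Col2a1 (84.3, 49.1 and 56.3 CPM). Of the single markers, Sox9 was at 7.68, 14.3 and 16.2 CPM and Matn3 at 0.987, 2.36 and 1.74, both with higher means in Thrombin than in Control, as Acan had, while Col9a1 (4.08, 3.77 and 7.47), Comp (3.45, 2.44 and 11) and Col11a2 (3.31, 1.08 and 3.74) had lower ones. The part of these markers in the result was not tested.

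Of the versican-cleaving proteases, 5 of 6 were tested, and 2 were called lower with thrombin, beside 5.44% of all tested genes. Adamts15 was at 98.8, 104.7 and 106 CPM in Control, 22.4, 17.9 and 16.5 in Thrombin, and 92.8, 75.5 and 77.9 in PD03. Its Thrombin libraries were far below the rest. It fell with thrombin (log2 fold change -2.44, interval -2.60 to -2.29, adjusted p = 2.38e-27, edgeR) and rose from Thrombin to PD03 (2.12, interval 1.96 to 2.28, adjusted p = 2.33e-25). PD03 against Control was -0.33, under the fold threshold. Adamts5 fell with thrombin from 110.3 ± 9.74 to 63.1 ± 4.63 CPM (-0.81, adjusted p = 2.1e-15) and was at 89.0 ± 2.27 CPM in PD03, a difference of 0.50 from Thrombin. Adamts4 was at 20.6, 23.8 and 42.0 CPM, with 0.21 for thrombin (adjusted p = 0.079) and a rise of 0.82 from Thrombin to PD03 (adjusted p = 2e-11). Adamts9, chosen after its values were seen, was at 42.8, 29.7 and 17.4 CPM. It differed by -0.53 with thrombin (adjusted p = 4.37e-08, edgeR), under the fold threshold, and fell from Thrombin to PD03 (-0.77, adjusted p = 1.65e-11). In PD03 against Thrombin, Adamts4 and Adamts15 were thus called higher, beside 9.61% of all tested genes, and Adamts9 lower, beside 6.31%. Vcan itself differed by -0.17 there.

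The 7 linkers and sheddases of Cd44 gave 0 calls in Thrombin against Control and in PD03 against Thrombin, beside 8.06% and 15.9% of all tested genes. Without the fold threshold, 5 of the 7 had an adjusted p under 0.05 in each of these, beside 28.7% and 49.8%. Msn encodes moesin, which ties Cd44 to actin, and was at 502 ± 9.09 CPM in Control, 743 ± 26.8 in Thrombin and 557 ± 26.0 in PD03. Its log2 fold changes of 0.56 and -0.42 were under the fold threshold, with adjusted p = 8.15e-17 and 4.08e-13 (edgeR). Without Thrombin 1 the former was 0.59 and was called. Mmp14, a membrane protease that can cut Cd44, was at 533 ± 13.1, 589 ± 13.1 and 861.5 ± 33.9 CPM (SD, n = 3). It differed by 0.55 from Thrombin to PD03 (adjusted p = 2.2e-17, edgeR), under the fold threshold. In PD03 against Control it was called higher (log2 fold change 0.69, adjusted p = 2.02e-20), beside 4.9% of all tested genes. With library totals this value was just under the fold threshold (0.58).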

How the data were processed

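RNA of 9 libraries was sequenced by the authors, who, by the paper, used fastp for trimming, HISAT2 and Rnor_6.0 for alignment and featureCounts for counting and tested with DESeq2. The submitters' processing notes name mRatBN7.2, HISAT2 and HTSeq 0.13.5 instead. The sources used here give neither annotation release nor strand setting. The authors deposited raw counts and FPKM values per gene and library. FPKM values are the counts divided by gene length and library total, without TMM, and that total includes Col1a1. The 3 libraries of a group are separate samples by the paper, which does not say whether they came from different rats or cell isolations. The spread behind the p-values and intervals may therefore be that between cultures only. Replicates of a group differed beyond sampling noise (chi-square over degrees of freedom 1.82 to 4.03).

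Counts were filtered with edgeR's filterByExpr (minimum count 10), scaled by TMM and fitted in 1 edgeR quasi-likelihood model over all 9 libraries, with 3 comparisons and Benjamini-Hochberg adjustment over all tested genes (R 4.3.3, edgeR 4.0.16, limma 3.58.1, DESeq2 1.42.0). The biological coefficient of variation was 4.28%. Intervals come from the fitted F statistic. The procedure was tested on simulated data. Python 3.11.15 and matplotlib 3.10.9 drew the figures.

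The members and lists were chosen with earlier results of these data known. From each part of the wider list, at most 3 called genes with the largest change in either of the first 2 comparisons, where the higher group averaged 1 CPM or more, were named, filled to 2 with the most abundant. Genes alike were searched at 1 CPM or more with a prior count of 2. Alternatives covered scaling, filter, test, fold threshold, each library left out, a replicate block, and FPKM + 1 or + 0.1. Values of 1 gene of the wider list are not reported here; the counts over the list include it.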

Additional observations from a re-analysis of the deposited data

How the results depend on the processing

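Over 22 alternatives, 9 of them leaving out a library, the 8 called values of Has2 and Cemip in all comparisons and of Has1 in both PD03 comparisons kept their call and direction wherever a value could be given, and no called value of a hyaluronan gene reversed. Has2 ranged from 1.64 to 1.86 with thrombin and from -3.73 to -3.43 in PD03 against Thrombin, and Cemip from -1.64 to -1.60 and from 2.63 to 2.77. Has1 in the PD03 comparisons was -1.22 and -0.81 with FPKM + 1, a scale that shrinks low genes. With a mean count of at least 50, Has1 and Has3 gave no value. The calls of Has1 and Tnfaip6 with thrombin did not hold everywhere: 2 of 8 genes were called instead of 4 with glmTreat, with a log2 fold change above 1 and with FPKM + 1, and leaving out a library gave 2 to 4. Without a fold threshold 7 were called in PD03 against Thrombin and 5 in PD03 against Control, in place of 3.

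In the order of the comparisons, calls of the wider list (7, 8 and 9) became 4, 5 and 5 with glmTreat, 21, 26 and 26 with no fold threshold, 3, 3 and 4 with a fold threshold of 1, and 4, 5 and 5 with FPKM + 1. Calls over all genes (1068, 2110 and 1189) became 460, 1051 and 499, then 3808, 6608 and 5289, then 505, 935 and 519, and 543, 1254 and 676. Library totals put the median of all genes at -0.023, -0.088 and -0.12. CPM in place of FPKM gave Has1 4.03%, 1.96% and 4.33% and Has2 94.7%, 97.7% and 92.7% of the synthase sum, Has3 0.353% in Thrombin, and moved 6, 4 and 3 genes in the order of Control, Thrombin and PD03. Leaving out a library moved 0 to 2 genes, with 2 moved without Thrombin 1 (in Thrombin) and without PD03 1 (in PD03).

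Deviations of libraries that share a replicate number had correlations of -0.046 to 0.052 between groups. Yet Has2 was higher from replicate 1 to 2 to 3 in every group, and replicate 1 was lowest in every group for Has1 and Tnfaip6. Whether the numbers pair the samples was therefore not settled. With the replicate number as a block, 4, 3 and 3 hyaluronan genes and 7, 8 and 9 of the wider list were called, as without it, and the block changed no call of a hyaluronan gene.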
